A study of Mus musculus with 16 samples.

Results

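The 10 genes described here mark or regulate oligodendrocyte precursor cells (OPCs) and their first steps toward the myelinating cell. They are Pdgfra, Cspg4, Olig1, Olig2, Sox10, Nkx2-2, Gpr17, Myrf, Bcas1 and Enpp6, chosen by symbol, and all 10 were found among the 24946 genes of both deposited tables. Neural stem cells (NSCs) of neonatal mice had been put in culture after dissection of the V-SVZ (ventricular-subventricular zone), the germinal wall of the lateral ventricle. Cultures were Tsc2 wt/wt (Control, called wild type) or Tsc2 mut/mut (TSC, called mutant), with 4 cultures of each genotype. The mutant cultures came from mice with the conditional allele Tsc2 tm1.1Mjg, the tamoxifen-inducible Cre line Nes-cre/ERT2 and a tdTomato reporter (RFP). That Cre is driven by the Nestin promoter, so recombination was limited to cells that used it when tamoxifen was given, a week before the tissue was taken. By the methods, control pups were injected with tamoxifen as well. Whether the wild-type mice also carried the Cre line was not clear from the labels or methods. All cultures were grown with EGF and FGF, passaged once and held with cycloheximide for 15 min before lysis. Per culture 1 library was made of total RNA and 1 of polyribosomal RNA, the latter from the heaviest 3 mL of a sucrose gradient, which made 16 libraries in 4 groups. The labels do not tie cultures to animals, litters or sex, so every p-value measures the spread between cultures, which may be technical.

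OPCs divide in response to platelet-derived growth factor (PDGF), which is read by the receptor that Pdgfra encodes. Their identity is held by a circuit of transcription factors in which Olig2 acts upstream of Sox10, and Sox10 together with Myrf later switches on the myelin genes. Gpr17, Bcas1 and Enpp6 mark the short stage between the dividing precursor and the mature oligodendrocyte. In the V-SVZ, NSCs and their amplifying progeny make Olig1 and Olig2 too, so these genes alone do not define an OPC. The comparisons asked how the transcript level of each gene, and its share on polyribosomes, differed between mutant and wild-type NSC cultures.

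The promoters of members that moved unequally are shown first, from 250 bases before to 50 bases after the annotated start. Of the 10 genes, 5 had an entry in the RefSeq promoter table (GRCm38.p6): Pdgfra, Cspg4, Olig2, Nkx2-2 and Enpp6. Capitals mark 3 motifs on either strand, namely the E-box CANNTG read by basic helix-loop-helix factors, the SOX motif ACAAAG or ACAATG, and the GC box GGGCGG. Pdgfra (chr5:75152001-75152300, plus strand), Cspg4 (chr9:56864854-56865153, plus strand), Olig2 (chr16:91225300-91225599, plus strand) and Enpp6 (chr8:46986637-46986936, plus strand) read 5′ to 3′ as follows.
Pdgfra: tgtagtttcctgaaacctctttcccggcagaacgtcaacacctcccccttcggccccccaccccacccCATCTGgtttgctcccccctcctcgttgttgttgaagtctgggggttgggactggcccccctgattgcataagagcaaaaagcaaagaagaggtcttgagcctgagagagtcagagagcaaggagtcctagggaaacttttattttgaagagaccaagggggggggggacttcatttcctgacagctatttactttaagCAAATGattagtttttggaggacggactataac
Cspg4: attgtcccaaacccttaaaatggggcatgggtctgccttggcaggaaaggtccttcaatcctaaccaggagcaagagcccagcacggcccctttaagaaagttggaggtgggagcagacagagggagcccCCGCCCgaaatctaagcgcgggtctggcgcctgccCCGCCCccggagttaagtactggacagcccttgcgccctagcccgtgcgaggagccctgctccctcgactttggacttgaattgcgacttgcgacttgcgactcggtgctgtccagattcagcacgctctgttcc
Olig2: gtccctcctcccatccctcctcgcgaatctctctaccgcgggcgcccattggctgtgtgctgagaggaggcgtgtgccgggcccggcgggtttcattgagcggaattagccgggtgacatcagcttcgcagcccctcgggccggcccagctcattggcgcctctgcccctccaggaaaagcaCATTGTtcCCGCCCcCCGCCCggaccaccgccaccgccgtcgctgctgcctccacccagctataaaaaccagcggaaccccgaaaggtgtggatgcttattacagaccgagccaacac
Enpp6: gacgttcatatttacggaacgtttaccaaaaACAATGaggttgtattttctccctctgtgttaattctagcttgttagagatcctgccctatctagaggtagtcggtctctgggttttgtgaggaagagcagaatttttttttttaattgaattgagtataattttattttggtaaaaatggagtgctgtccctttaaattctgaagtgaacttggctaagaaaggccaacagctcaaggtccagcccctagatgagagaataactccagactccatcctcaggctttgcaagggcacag

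The 4 windows differed in composition. GC content was 65.0% in Olig2, 60.0% in Cspg4, 51.0% in Pdgfra and 40.3% in Enpp6, against a median of 52.7% over 32851 promoters. Olig2 held 1 SOX motif and 2 GC boxes, and Cspg4 held 2 GC boxes and no E-box. The Pdgfra window had 2 E-boxes, while Enpp6 had 1 SOX motif and neither of the other motifs. Among all promoters 72.3% held an E-box, 28.6% a SOX motif and 35.7% a GC box. Nkx2-2, whose window is not printed, had 3 E-boxes and 1 GC box.

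Values are read counts per gene that the authors normalized with DESeq2, here called normalized reads, and each fraction was normalized in its own table. They summed to 65.6 to 73.7 M per total RNA library and 87.4 to 100.5 M per polyribosomal library, and the step between low values put depth at about 24.7 to 139 M and 51.8 to 268 M reads. Tsc2 did not pass the test in total RNA (log2 change -0.10 ± 0.10 SE, limma adjusted p = 0.422) and fell by 0.49 ± 0.15 in polyribosomal RNA (limma adjusted p = 0.0389). Its value sums the whole gene and so does not check the genotype labels. Summed over the 4 Y-linked genes, total RNA of wild-type cultures 1 to 3 and mutant culture 1 held 4203 to 5802 normalized reads, that of wild-type culture 4 held 258, and that of mutant cultures 2 to 4 held 6.57 to 48.6. The Y-linked level therefore moved with genotype. The 13 microglial genes summed to 4204 to 6174 in wild-type total RNA and to 6773, 25554, 5400 and 14679 in mutant cultures 1 to 4, so that mutant cultures 2 and 4 stood apart.

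Normalized reads were also divided by transcript length, to set the genes beside one another. In wild-type total RNA, Olig1 was at 86993 ± 4930 and Olig2 at 36296 ± 2292 per kb (mean ± SD, n = 4), and in every library both lay above the 99th percentile of 20569 genes with a length. Nkx2-2 followed at 1542 ± 89.7 per kb. Bcas1 (455 ± 85.9), Cspg4 (305 ± 68.4), Sox10 (259 ± 20.3) and Pdgfra (243 ± 29.8) came next, and each of these overlapped its neighbour in that order over the 4 cultures. Myrf was at 52.7 ± 9.63 per kb, and Gpr17 (10.1 ± 3.91) and Enpp6 (8.64 ± 2.92) were lowest and overlapped each other. The order on the per-kb scale thus put the 2 Olig genes far above the PDGF receptor and NG2 genes in these cultures. In mutant total RNA, Cspg4 reached 699.9 ± 264 per kb, close to Bcas1 at 805 ± 119, and Enpp6 (29.8 ± 4.96) had a higher mean than Gpr17 (22.2 ± 7.78), with overlap.

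In mutant total RNA, 7 of the 10 genes rose and none fell. These were Cspg4, Olig1, Sox10, Gpr17, Myrf, Bcas1 and Enpp6, with rises from 1.25-fold for Olig1 to 3.45-fold for Enpp6. Over all 14967 genes tested, 19.7% rose and 20.7% fell (2944 and 3091 genes), a balance that moved to 3833 higher and 2263 lower with scaling to the column total, where 8 of the 10 rose. For 6 of the 10 (all of those that rose except Gpr17) every mutant culture was above every wild-type culture, which held for 17.8% of all genes. The median log2 change was 0.78 over the 10 genes and 0.01 over all genes. With a covariate for the Y-linked level 5 of the 10 passed, all but Olig1 and Gpr17 of those above, and without mutant culture 1 the same 5 passed.

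**Figure D1:**
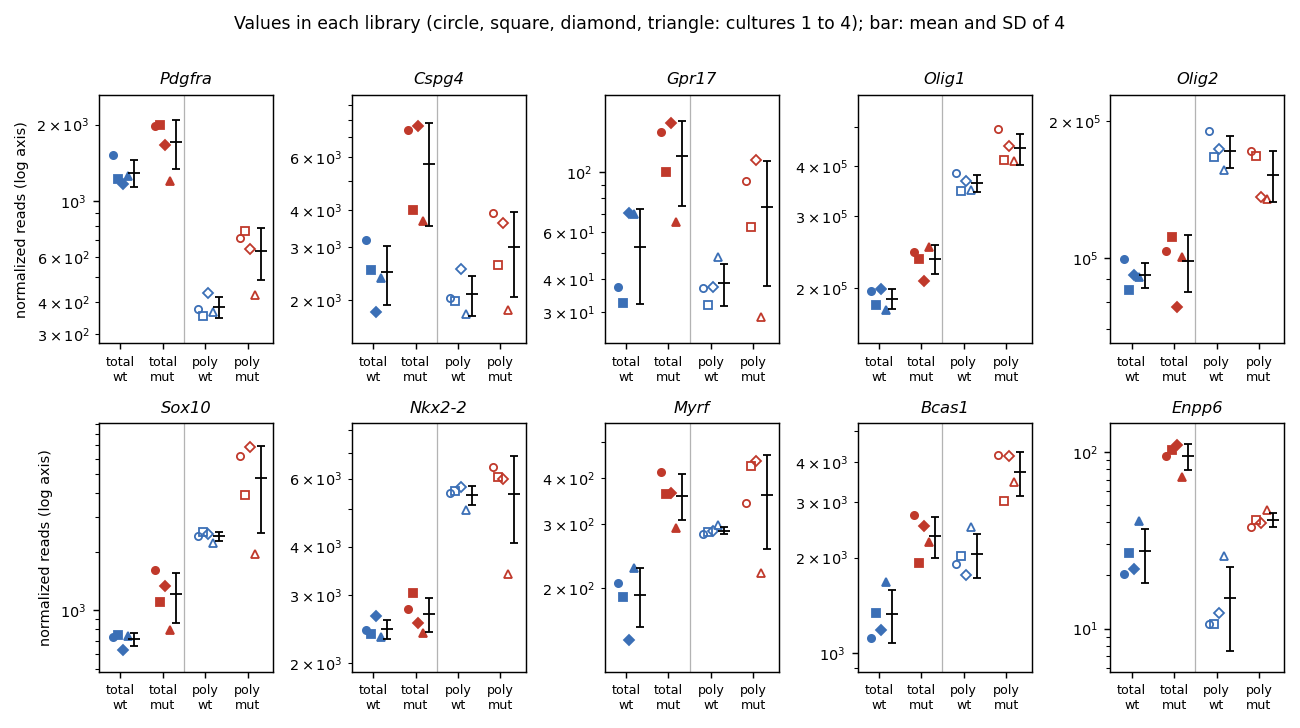
Normalized reads of the 10 genes in each library, on a log axis that differs between panels, for total RNA (filled symbols) and polyribosomal RNA (open symbols) of wild-type (wt, blue) and mutant (mut, red) cultures; symbols stand for cultures 1 to 4 and the bar for the mean and SD of 4. The fractions were normalized separately, so levels compare within a fraction. In total RNA the genotypes do not overlap for Cspg4, Olig1, Sox10, Myrf, Bcas1 and Enpp6, and in polyribosomal RNA mutant culture 4 (triangle) lies below all wild-type cultures for Sox10, Nkx2-2, Myrf, Gpr17 and Olig2.

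Pdgfra (chromosome 5, 75152292 to 75198215, plus strand, GRCm38) encodes the receptor through which PDGF drives precursor division. Its total RNA was at 1521, 1219, 1164 and 1258 normalized reads in wild-type cultures 1 to 4 and at 1978, 1986, 1669.5 and 1194 in mutant cultures 1 to 4. Mutant cultures 1 to 3 were above all wild-type cultures and mutant culture 4 was among them. The log2 change was 0.38 ± 0.16 (SE) and did not pass (limma adjusted p = 0.0865). It was 0.54 ± 0.12 without mutant culture 4 (limma adjusted p = 0.0124). With scaling to the column total it was 0.48 ± 0.17 (limma adjusted p = 0.0455). When each culture was left out in turn it ranged from 0.30 to 0.54, with limma adjusted p up to 0.211. Polyribosomal RNA held 374, 354, 434 and 365 normalized reads in wild type and 714, 760.4, 646 and 428 in mutant. There Pdgfra rose 1.67-fold (log2 change 0.71 ± 0.19, limma adjusted p = 0.0216), with mutant culture 4 just under the highest wild-type culture. That call was lost without wild-type culture 2 or without mutant culture 1, at an adjusted p of 0.0625 and 0.0624.

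Cspg4 (chromosome 9, 56865033 to 56899870, plus strand) encodes the NG2 proteoglycan of the precursor surface, which pericytes make as well. In total RNA it stood at 3176, 2527, 1825 and 2375 normalized reads in wild type and at 7418, 3995, 7652 and 3670.0 in mutant. It rose 2.30-fold (log2 change 1.14 ± 0.26, limma adjusted p = 0.00826). Mutant cultures 1 and 3 were about level with each other, well above mutant cultures 2 and 4, and no culture overlapped between genotypes. Polyribosomal Cspg4 was at 2033, 1991, 2546 and 1802 in wild type and at 3922, 2622, 3620.3 and 1846 in mutant, a log2 change of 0.47 ± 0.22 that did not pass (limma adjusted p = 0.129). Mutant culture 4 lay within the wild-type range there, and without it the log2 change was 0.69 ± 0.17 (limma adjusted p = 0.0208). Leaving out each culture in turn gave log2 changes from 0.32 to 0.69, with limma adjusted p up to 0.319.

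Other cells that make these receptors were measured beside them. Of 8 tested genes of pericytes and smooth muscle, 3 rose (Anpep, Pdgfrb and Rgs5) and 1 fell (Acta2) in total RNA. Anpep rose by 1.92 in log2 terms (limma adjusted p = 0.00492). The 10 listed genes summed to 817 to 1227 normalized reads in wild type and 1239 to 1883 in mutant cultures, without overlap. The pericyte genes Kcnj8 (mean 16.5 in wild-type and 51.6 in mutant total RNA) and Abcc9 (1.02 and 7.45) were low but not at 0 in every library. Of 9 tested fibroblast and meningeal genes 2 rose, Col3a1 and Pdgfrb, the latter also on the pericyte list and the PDGF list below. Sums of the 9 genes overlapped, at 3317 to 6235 and 4824 to 5868. In polyribosomal RNA 1 of 7 pericyte genes and none of 6 fibroblast genes passed. The part of such cells in the Cspg4 and Pdgfra values was not tested, and in bulk RNA more cells of a type and more RNA per cell cannot be told apart.

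Gpr17, a receptor gene of precursors committed to differentiate, lies on chromosome 18 (31942997 to 31949636, minus strand) and shares that interval with Lims2 on the opposite strand. The kit did not mark strand, so reads of the shared stretch cannot be assigned with certainty. Total RNA of Gpr17 was at 37.3, 32.6, 70.2 and 69.8 normalized reads in wild type and at 142, 100.0, 154 and 65.4 in mutant. It rose 2.19-fold (log2 change 1.13 ± 0.34, limma adjusted p = 0.0263), although mutant culture 4 was below 2 wild-type cultures, and the call was lost when wild-type culture 1 or 2 or mutant culture 1 or 3 was left out (limma adjusted p from 0.0604 to 0.0746). Polyribosomal Gpr17 was at 37.1, 32.0, 37.2 and 48.4 in wild type and at 93.1, 62.5, 112 and 28.7 in mutant and did not pass (log2 change 0.77 ± 0.37, limma adjusted p = 0.147). Without mutant culture 4, the lowest of all 8, the log2 change was 1.16 ± 0.28 (limma adjusted p = 0.0184). Its range was 0.52 to 1.16 when each culture was left out in turn, with limma adjusted p up to 0.345. Lims2 ordered the mutant cultures as Gpr17 did, with 33.1, 31.0, 44.7 and 22.8 normalized reads in total RNA of mutant cultures 1 to 4 and 11.1 to 15.2 in wild type.

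The transcription factors followed no common pattern. Olig1 and Olig2, neighbouring basic helix-loop-helix genes of the lineage, lie 41095 bp apart on chromosome 16, at 91269772 to 91271933 and 91225457 to 91228677, both on the plus strand. Olig1 total RNA was at 195891, 181641, 198284 and 176498 normalized reads in wild type and at 244988, 235952, 207819.7 and 251508 in mutant. It rose 1.25-fold (log2 change 0.32 ± 0.09, limma adjusted p = 0.0156), and all mutant cultures were above all wild-type cultures. Its polyribosomal RNA also separated the genotypes, with 347517 to 383857 in wild type and 411989 to 494112 in mutant, and rose 1.22-fold (log2 change 0.28 ± 0.09, limma adjusted p = 0.0469). That call was close to the threshold and was lost when any of the 4 wild-type cultures, or mutant culture 1 or 3, was left out, with adjusted p from 0.069 to 0.130.

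Olig2, which specifies the lineage, did not pass in either fraction. Its total RNA was at 99369.6, 85251, 91747 and 90949 normalized reads in wild type and at 103801, 111381, 78135 and 100481 in mutant, and mutant culture 3 was the lowest of all 8. The log2 change was 0.09 ± 0.11 (limma adjusted p = 0.538), yet it was 0.41 ± 0.10 after quantile normalization (limma adjusted p = 0.0144). Polyribosomal Olig2 was at 189993, 166759, 173803 and 156676 in wild type and at 171679, 167893, 136006 and 135109 in mutant. Mutant cultures 3 and 4 were below all wild-type cultures, and the log2 change of -0.18 ± 0.12 did not pass (limma adjusted p = 0.28) and was 0.03 after quantile normalization.

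Sox10 (chromosome 15, 79154908 to 79165240, minus strand) encodes the SRY-box factor that OPCs keep through myelination. Total RNA held 729, 751, 629 and 737 normalized reads of Sox10 in wild type and 1615, 1106, 1335 and 790.4 in mutant. The gene rose 1.70-fold (log2 change 0.72 ± 0.19, limma adjusted p = 0.0153), with mutant culture 4 only just above the wild-type cultures. In 1 fit over all 16 libraries its limma adjusted p was 0.0664 in total RNA and 0.0387 in polyribosomal RNA. The polyribosomal values were 2401, 2520.3, 2471 and 2225 in wild type and 6214, 3923, 6891 and 1946 in mutant. Wild-type cultures were close together, mutant cultures 1 to 3 were all above them and mutant culture 4 was below them, so the log2 change of 0.82 ± 0.34 did not pass (limma adjusted p = 0.102). Without mutant culture 4 it was 1.20 ± 0.18 (limma adjusted p = 0.00649). When each culture was left out in turn it ranged from 0.59 to 1.20, with limma adjusted p up to 0.222. Sox10 is also a gene of Schwann cells and neural crest, and of 9 tested genes of those cells 2 rose in total RNA and none of 6 passed in polyribosomal RNA.

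Nkx2-2 (chromosome 2, 147177546 to 147194243, minus strand), a homeobox gene that times differentiation, did not pass in either fraction. Its total RNA was at 2435, 2372, 2649.5 and 2329 normalized reads in wild type and at 2749, 3024, 2533 and 2394 in mutant, with overlap (log2 change 0.12 ± 0.09, limma adjusted p = 0.296). Polyribosomal Nkx2-2 was at 5519, 5564, 5694 and 4979.9 in wild type and at 6423, 6066, 5983 and 3401 in mutant. Mutant cultures 1 to 3 were all above the wild-type cultures and mutant culture 4 far below them, and the log2 change was -0.03 ± 0.18 (limma adjusted p = 0.909) or 0.18 without culture 4 (limma adjusted p = 0.217). Besides Gpr17, annotated transcripts on the opposite strand overlap Pdgfra, Olig1, Nkx2-2, Bcas1 and Enpp6, and reads of the shared stretches could not be separated by strand.

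Myrf (chromosome 19, 10208272 to 10240748, minus strand) encodes the membrane-bound factor that starts the myelin program. In total RNA it was at 206, 189.6, 144 and 227 normalized reads in wild type and at 416, 361, 363 and 292 in mutant. It rose 1.87-fold (log2 change 0.91 ± 0.17, limma adjusted p = 0.00485) and no culture overlapped. Polyribosomal Myrf was at 282, 285, 286 and 298 in wild type and at 343, 429.9, 444 and 219.7 in mutant. Mutant cultures 1 to 3 were above the narrow wild-type range and culture 4 was below it, and the log2 change of 0.27 ± 0.22 did not pass (limma adjusted p = 0.386).

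Of the 3 genes of the differentiating stage, Bcas1 and Enpp6 rose in both fractions and Gpr17, as given above, in total RNA. Bcas1 (chromosome 2, 170346991 to 170427845, minus strand), a gene of newly formed and early myelinating oligodendrocytes, was at 1112, 1339, 1183 and 1675 normalized reads in wild-type and at 2720.0, 1918, 2514 and 2233 in mutant total RNA. It rose 1.77-fold there (log2 change 0.83 ± 0.15, limma adjusted p = 0.00397). In polyribosomal RNA it went from 1906, 2017, 1761 and 2506 to 4199, 3013, 4189 and 3462, a rise of 1.81-fold (log2 change 0.86 ± 0.15, limma adjusted p = 0.0046). Genotypes did not overlap in either fraction. Under every leave-one-out fit Bcas1 still passed, with adjusted p up to 0.015 in total and 0.0183 in polyribosomal RNA.

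Enpp6 (chromosome 8, 46986887 to 47096762, plus strand), a choline phosphodiesterase gene of newly forming oligodendrocytes, had the largest rise of the 10. Total RNA was at 20.5, 26.7, 21.9 and 40.8 normalized reads in wild type and at 95.1, 102, 109 and 72.8 in mutant, a rise of 3.45-fold (log2 change 1.79 ± 0.26, limma adjusted p = 0.00266). Polyribosomal RNA was at 10.7, 10.6, 12.3 and 25.9 in wild type and at 37.9, 41.3, 39.8 and 46.8 in mutant, a rise of 2.79-fold (log2 change 1.51 ± 0.32, limma adjusted p = 0.00864). The genotypes did not overlap, but wild-type culture 4 was the highest wild-type culture in both fractions. Enpp6 and Gpr17 were the least deeply measured members, with about 8.95 to 198 reads of Enpp6 per total RNA library and 7.75 to 55.8 per polyribosomal library.

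**Figure D2:**
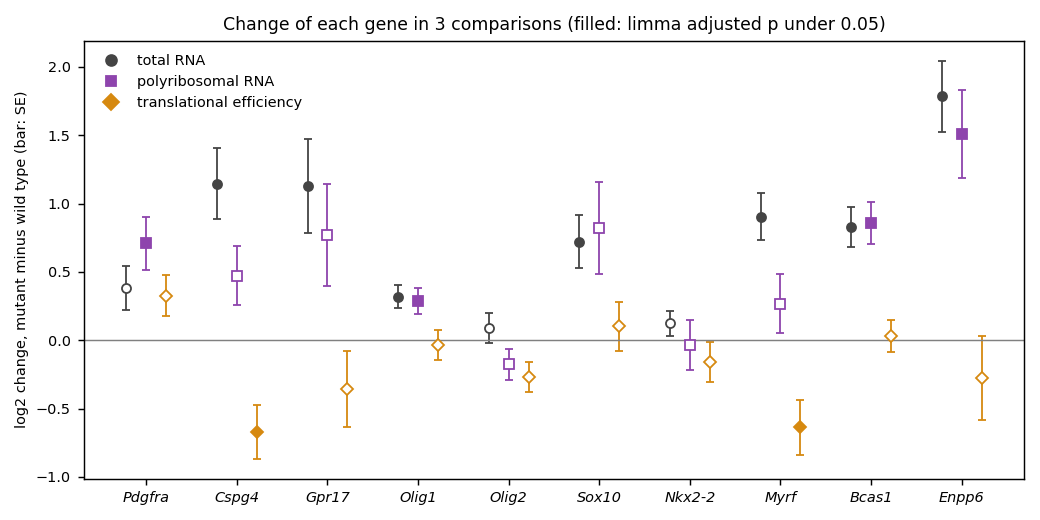
Log2 change (mutant minus wild type, with SE) of each gene in total RNA, polyribosomal RNA and translational efficiency, filled where the limma adjusted p was under 0.05. Enpp6 has the largest change in both fractions (1.79 and 1.51), and Cspg4 and Myrf have filled points below 0 for translational efficiency (-0.67 and -0.64).

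In mutant polyribosomal RNA, 4 of the 10 genes rose, namely Pdgfra, Olig1, Bcas1 and Enpp6, and none fell. Of 14412 genes tested, 11.7% rose and 11.9% fell (1690 and 1713 genes), which became 2583 and 929 with scaling to the column total, where 4 of the 10 still rose. All mutant cultures were above all wild-type cultures for 3 of the 10 (Olig1, Bcas1 and Enpp6), against 13.3% of all genes. The median log2 change was 0.59, and 0.01 over all genes. Without mutant culture 4 the count was 7, with Cspg4, Gpr17 and Sox10 added, while 3327 of 14393 genes passed in all. The count was 2 without wild-type culture 2 (1888 of 14433 genes in all) and 2 without mutant culture 1 (2090 of 14396). With the Y-linked level as covariate none of the 10 passed in limma, although 6 had an unadjusted p under 0.05, and only 43 of all genes passed.

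Mutant culture 4 was set against the other mutant cultures in more detail. In polyribosomal RNA it was the lowest mutant culture for 8 of the 10 genes (all but Bcas1 and Enpp6), as it was for 30.8% of all genes. In total RNA it was the lowest for 7 of the 10, namely Pdgfra, Cspg4, Sox10, Nkx2-2, Gpr17, Myrf and Enpp6, and for 17.6% of all genes. Enpp6 went the other way in polyribosomal RNA, where mutant culture 4 was the highest. No other culture was the lowest of its genotype for more than 4 of the 10 genes in a fraction. The summed microglial levels of mutant cultures 2 and 4 stood apart, as given above. Mutant culture 2 was the lowest mutant culture for 1 of the 10 genes (Bcas1) in each fraction. Over all genes it was the lowest for 28.8% in total and 22.6% in polyribosomal RNA. Whether the microglial level bears on the low values of mutant culture 4 was not tested. The part of these differences in the comparison of genotypes was not tested beyond leaving cultures out.

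**Figure D3:**
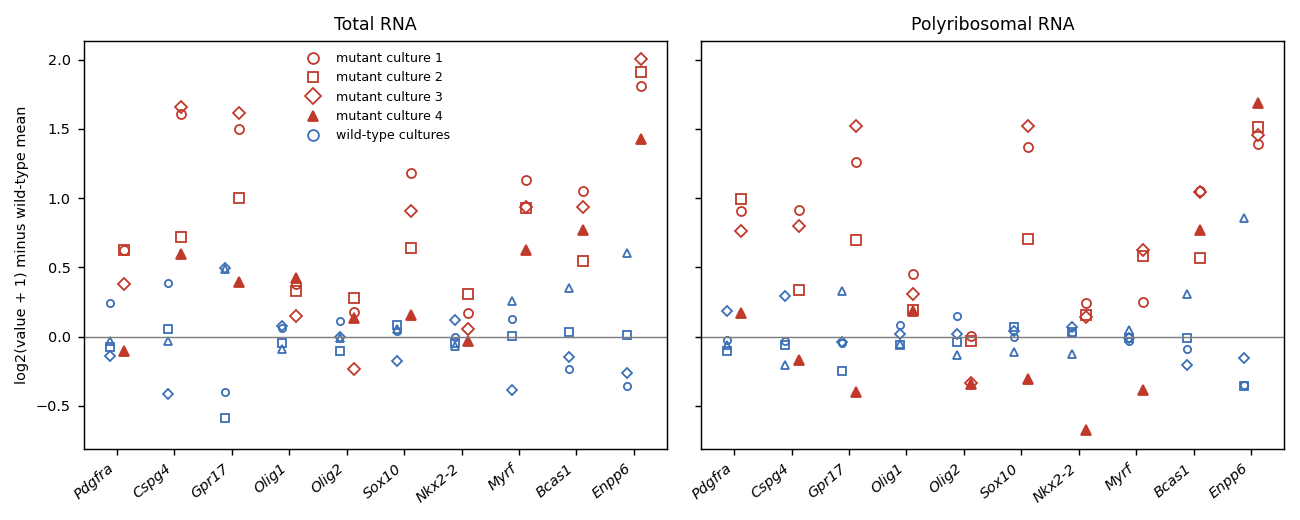
Difference of each culture's log2(value + 1) from the wild-type mean for the 10 genes, in total RNA (left) and polyribosomal RNA (right), with wild-type cultures in blue and mutant cultures in red, symbols for cultures 1 to 4 and mutant culture 4 as a filled triangle. In polyribosomal RNA the filled triangle lies below the other mutant cultures for 8 of the 10 genes and is highest for Enpp6.

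The values were also compared among cultures alike in the Y-linked level. Among cultures with a summed Y-linked value of at least 1000 (wild-type cultures 1 to 3 and mutant culture 1), the mutant culture was above all wild-type cultures in total RNA for 10 of the 10 genes, as for 37.7% of all genes. Among the rest (wild-type culture 4 and mutant cultures 2 to 4), all mutant cultures were above the wild-type one for 7 of the 10, all but Pdgfra, Olig2 and Gpr17, and for 33.6% of all genes. In polyribosomal RNA the counts were 9 and 5 of the 10, against 38.2% and 26.7% of all genes. Enpp6 total RNA, for example, was at 20.5 to 26.7 against 95.1 in the first set and at 40.8 against 72.8 to 109 in the second. Each set holds a single culture of 1 genotype, so no test was made within them. The part of the Y-linked difference in the results was not separately tested beyond the covariate fit.

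Translational efficiency was then compared, as the change between genotypes of the ratio of polyribosomal to total RNA within a culture. Of the 10 genes, 2 fell and none rose, while 7.89% of 14333 genes fell and 5.07% rose (1131 and 727 genes). With scaling to the column total 946 genes fell and 920 rose, and none of the 10 passed in limma, although 4 had an unadjusted p under 0.05. The 2 that fell were Cspg4, whose log2 ratio fell by 0.67 ± 0.20 (limma adjusted p = 0.0353), and Myrf, whose log2 ratio fell by 0.64 ± 0.20 (limma adjusted p = 0.0471). Relative to the median gene of the same culture, the log2 ratio of Cspg4 was -0.04 ± 0.47 in wild type and -0.69 ± 0.18 in mutant (mean ± SD, n = 4), and that of Myrf was 0.79 ± 0.25 and 0.18 ± 0.35. The rank of the ratio was at percentile 34.8 to 72.0 in wild type and 21.0 to 31.2 in mutant for Cspg4. For Myrf it was at 68.8 to 85.9 and 43.2 to 66.6. The ranks of the genotypes did not overlap for either gene, but how many of all genes separate in this way was not counted. Neither call was firm. Leaving out wild-type culture 2 or 3 or mutant culture 1 or 4 removed both, mutant culture 3 that of Cspg4 and wild-type culture 4 that of Myrf, and wild-type culture 3 alone moved the Cspg4 value from -0.67 to -0.44.

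The other 8 genes did not pass. Olig2 had a log2 change of -0.27 ± 0.11 (limma adjusted p = 0.116) with ranks of 80.2 to 85.5 in wild type and 75.01 to 79.0 in mutant, and it did pass after quantile normalization (-0.38, limma adjusted p = 0.0225). For Pdgfra the change was 0.33 ± 0.15 (limma adjusted p = 0.146), the largest positive value of the 10. Bcas1 (0.03 ± 0.12), Olig1 (-0.04 ± 0.11) and Sox10 (0.10 ± 0.18) had values near 0. Gpr17, Enpp6 and Nkx2-2 were at -0.36 ± 0.28, -0.28 ± 0.31 and -0.16 ± 0.15.

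The genes also differed in where their ratio lay among all genes tested in both fractions. Sox10 was between percentiles 98.6 and 99.8 in wild-type cultures and between 96.1 and 99.9 in mutant cultures, which placed it among the transcripts most heavily weighted to polyribosomes. Nkx2-2 (88.5 to 91.7), Olig1 (83.5 to 86.5) and Olig2 followed in wild type. Pdgfra was at the opposite end, between 4.14 and 11.6 in wild type and between 9.38 and 14.9 in mutant. Enpp6 was at 16.9 to 33.4 and 11.7 to 33.9. On the per-kb scale the mean of Sox10 in wild-type cultures was under those of Bcas1 and Cspg4 in total RNA (259 normalized reads per kb) and over both in polyribosomal RNA (875 ± 47.1, against 702 ± 111 for Bcas1). Over cultures it overlapped Cspg4 in total RNA and Bcas1 in polyribosomal RNA. Pdgfra was above Myrf in wild-type total RNA and overlapped it in polyribosomal RNA (71.8 ± 6.71 and 79.1 ± 1.91).

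**Figure D4:**
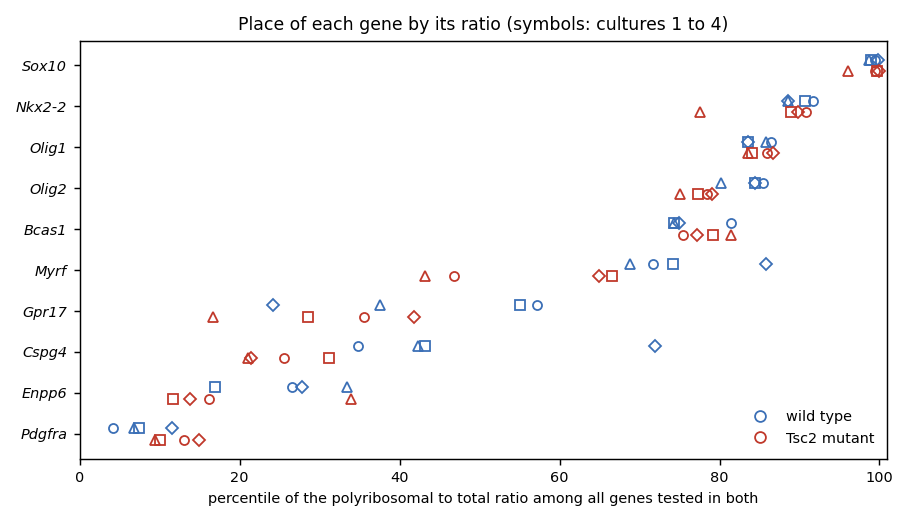
Percentile of the polyribosomal to total ratio of each gene among all genes tested in both fractions, 1 symbol per culture, wild type in blue and mutant in red. Sox10 lies above 96 in all 8 cultures and Pdgfra below 15, and the genotypes separate for Cspg4, Myrf and Olig2. The share of all genes that separate in this way was not counted.

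The ligands of the PDGF receptor and its sister receptor were examined as a list of 5. In mutant total RNA 4 rose and none fell, with a median log2 change of 0.86, and in polyribosomal RNA 3 rose. Beside this and every other list stand the shares over all genes. These were 19.7% higher and 20.7% lower in total RNA, and 11.7% higher and 11.9% lower in polyribosomal RNA. Pdgfa, the main ligand for precursor division, went from 3055, 2337, 1968 and 2880 normalized reads in wild type to 4296, 3546, 5145 and 4236 in mutant total RNA (log2 change 0.76, limma adjusted p = 0.00559). It rose in polyribosomal RNA as well (0.79, limma adjusted p = 0.00566). Pdgfc rose by 0.86 and Pdgfd by 2.50 in log2 terms in total RNA (limma adjusted p = 0.0122 and 0.00313), and Pdgfd, at 17.8 to 34.1 in wild type and 79.1 to 351 in mutant, had no overlap. Pdgfrb, the receptor gene of pericytes, rose by 0.95 in total RNA (limma adjusted p = 0.0228) and did not pass in polyribosomal RNA (0.55, limma adjusted p = 0.248). Pdgfb did not pass in either fraction, and its translational efficiency fell by 0.62 (limma adjusted p = 0.0262).

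Of 15 tested surface and matrix genes of OPCs other than the 10, 8 rose in mutant total RNA and 5 in polyribosomal RNA, with none lower and median log2 changes of 0.49 and 0.59. Ptprz1, a receptor phosphatase gene of precursors and NSCs, rose by 0.47 in total RNA (limma adjusted p = 0.00473). Cspg5, the neuroglycan C gene, rose by 1.41 and 1.32 in the 2 fractions, and the adhesion gene Cntn1 by 1.24 and 1.44. The glutamate receptor gene Gria3 rose by 0.58 and 0.67. Ednrb, the endothelin receptor gene, was at 0.09 in total RNA and did not pass (limma adjusted p = 0.621).

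Other transcription and chromatin factors that favour the lineage gave a mixed count, with 3 of 17 higher and 2 lower in total RNA and 3 of 16 higher and 2 lower in polyribosomal RNA. The ETS factor gene Etv5 rose by 0.62 (limma adjusted p = 0.00568), Tcf7l2 by 0.50 (limma adjusted p = 0.00429) and Tcf4 by 0.36 (limma adjusted p = 0.025) in total RNA. The deacetylase gene Hdac2 fell by 0.57 (limma adjusted p = 0.00609). Smarca4, the chromatin remodeller that works with Olig2, was at -0.17 in total RNA and did not pass, and it fell by 0.57 in polyribosomal RNA (limma adjusted p = 0.0202).

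Among 14 tested inhibitors of differentiation, 2 rose (Id2 and Gpr37) and 2 fell (Hes1 and Hes5) in total RNA. Hes5, a Notch target that restrains the lineage, fell by 1.95 in total and 1.60 in polyribosomal RNA (limma adjusted p = 0.0026 and 0.00611). Id2, which sequesters basic helix-loop-helix partners, rose by 0.64 and 0.89. Notch1 did not pass in total RNA (0.39, limma adjusted p = 0.14), fell by 0.66 in polyribosomal RNA (limma adjusted p = 0.0376) and fell by 1.05 in translational efficiency (limma adjusted p = 0.00691). Gpr37, which delays myelination and marks newly formed oligodendrocytes, is on this list and the next and rose by 2.92 in total RNA (limma adjusted p = 0.00299). Sox6 was at 0.16 in total RNA and did not pass (limma adjusted p = 0.163).

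Of 13 tested genes of premyelinating oligodendrocytes, 7 rose in total RNA and 5 in polyribosomal RNA with none lower, and 4 fell in translational efficiency. Nfasc, the neurofascin gene, rose by 1.79 in total and 1.01 in polyribosomal RNA (limma adjusted p = 0.00254 and 0.00195), and its efficiency fell by 0.78 (limma adjusted p = 0.0102). The kinase gene Fyn rose by 0.22 in total RNA (limma adjusted p = 0.0475), Tmem163 rose by 1.31, and Tns3 was at 0.21 and did not pass (limma adjusted p = 0.178). The myelin list was the longest and had the highest count. There 15 of 19 tested genes rose in total RNA and 15 in polyribosomal RNA, with median log2 changes of 1.35 and 1.77. The PDGF list of 5, with 4 higher, had a like share in total RNA. Mbp rose by 2.17 in total RNA (limma adjusted p = 6.9e-06) and Mag by 2.42. Summed over 21 genes, transcripts of this list were at 22728 to 32433 normalized reads in wild-type and 53009 to 60270 in mutant total RNA. Large parts of these sums were Trf (means 4748 ± 3185 SD and 18442), Cnp (7727 and 11819) and Car2 (9852 and 9034). Car2 did not pass (limma adjusted p = 0.425).

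**Figure D5:**
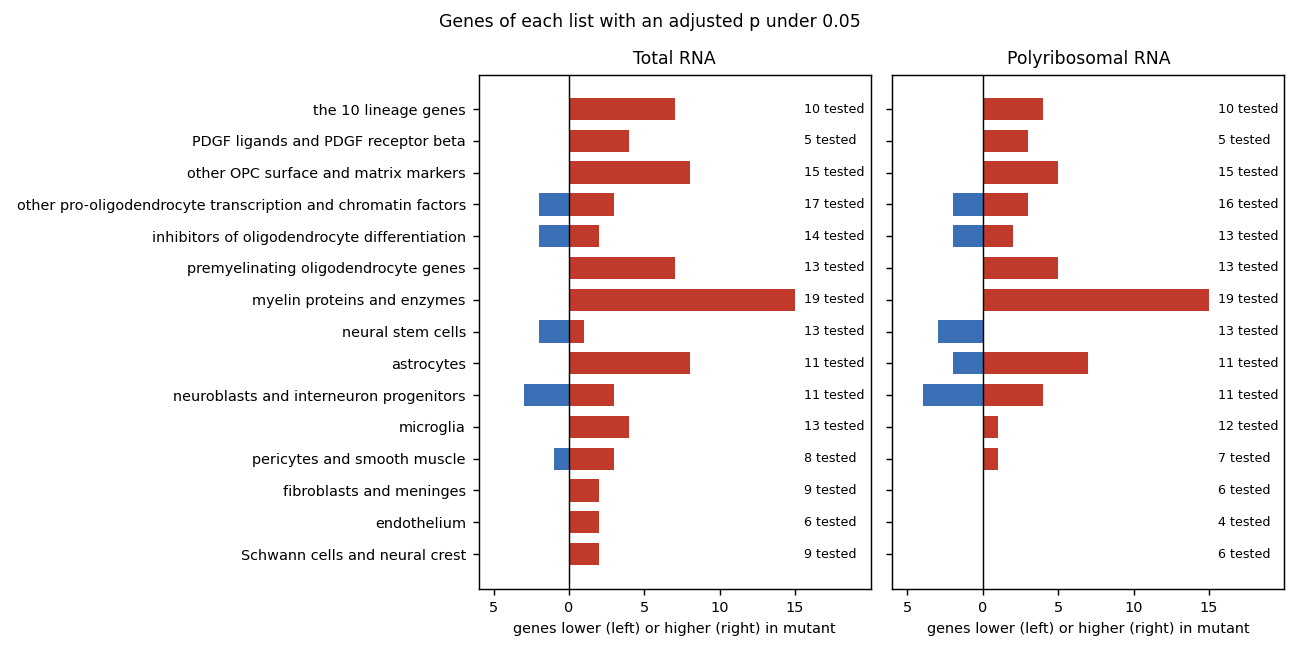
Number of genes of each list that were higher (red, to the right) or lower (blue, to the left) in mutant cultures at a limma adjusted p under 0.05, in total RNA (left) and polyribosomal RNA (right), with the number tested beside each bar. The myelin list, which is the longest, has the highest count in both fractions (15 of 19). The list of neural stem cells has the most genes lower relative to higher in polyribosomal RNA (3 and 0).

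The labelled cell type was checked against NSC markers. Vim, Fabp7 and Tnc were the most abundant of 13 listed genes, with wild-type means of 351712, 125517 and 73993 normalized reads in total RNA, and the summed level overlapped between genotypes (670173 to 814119 and 709750 to 771780). Of the 13, 1 rose (Slc1a3, by 0.24) and 2 fell (Fabp7 by 0.65 and Hes1 by 0.36) in total RNA. In polyribosomal RNA 3 fell and none rose. Of 11 tested astrocyte genes, 8 rose in total RNA, and 7 rose and 2 fell in polyribosomal RNA. Their summed total RNA was at 83816 to 109208 in wild type and 121049 to 186795 in mutant. Clu rose by 1.58, Atp1b2 by 1.58 and S100b, which OPCs also make, by 1.94, whereas Aldh1l1 was at 0.00 in total RNA (limma adjusted p = 0.989).

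Markers of further cell types were mixed. Of 11 tested genes of neuroblasts and interneuron progenitors, 3 rose (Stmn2, Gad1 and Nrxn3) and 3 fell in total RNA, and 4 rose and 4 fell in polyribosomal RNA. Of 13 tested microglial genes, 4 rose in total RNA, among them Tmem119, Itgam and Ctss, 1 rose in polyribosomal RNA and 4 fell in translational efficiency. Of 6 endothelial genes 2 rose in total RNA (Cdh5 and Flt1), and none of 4 passed in polyribosomal RNA. The summed levels of the endothelial list were 1198 to 2506 in wild type and 2548 to 4079 in mutant total RNA. Flt1 made up most of these sums (means 1757 and 2895), whereas Pecam1 was at 38.0 and 38.2 and did not pass. The part of these cells in the values of the 10 genes was not tested. Without mutant cultures 2 and 4, those highest in microglial genes, 7 of the 10 passed in total RNA (Pdgfra added, Olig1 lost) and 7 in polyribosomal RNA (Cspg4, Gpr17 and Sox10 added). Over all genes the counts were higher there too, with 6778 of 14943 in total RNA and 5395 of 14343 in polyribosomal RNA, against 6035 of 14967 and 3403 of 14412 with all cultures.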

How the data were processed

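V-SVZ NSC cultures (4 per genotype) gave total and polyribosomal libraries, the latter from gradients of 17.5% to 50% sucrose. Polyadenylated RNA was sequenced from libraries that carry no strand mark. The authors trimmed reads, aligned them with STAR to mm10 and deposited a signal, DESeq2-normalized reads per gene, in a separate table for each fraction. Which counter and annotation they used is not given in the sources used here. Groups and culture numbers came from the labels. Each table had 24972 rows, of which 26 with names turned into dates were left out. Low values lay within 0.1 of whole multiples of a step for 62.7% to 91.3% per library, so whole reads were not recovered and count models were not used.

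The value + 1 was put on a log2 scale and tested with limma 3.58.1 (R 4.3.3), with trend and robust moderation and Benjamini-Hochberg adjustment over all genes with a mean of at least 10. That scale understates changes of low genes. The threshold was an adjusted p of 0.05. Each fraction was fitted by genotype, and translational efficiency was the interaction of genotype and fraction with culture as a block. Total and polyribosomal libraries of a culture came from 1 lysate, and their deviations from group means correlated at 0.233 to 0.731. Fits were tested on simulated data in which the total and polyribosomal values of a culture were drawn independently. That simulation therefore did not include the correlation just given. Members and lists were chosen with earlier results of these data known. Named besides the 10 genes are Tsc2, all tested genes of lists of up to 6, and for longer lists the 3 most abundant and the 3 with the smallest p in total RNA. A few genes within that rule are left unreported here. Lims2, Kcnj8, Abcc9 and Rgs5 were named after their values were seen. Locations and lengths are from GENCODE M21. Alternatives were other pseudocounts, filters, scalings, moderation and blocks, a Y-linked covariate and leaving out cultures.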

Additional observations from a re-analysis of the deposited data

Results flagged for a closer look

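A pair of the 10 genes had a change that differed between total and polyribosomal RNA in the interaction test. Cspg4 had a log2 difference of -0.67 (limma adjusted p = 0.0353) and Myrf one of -0.64 (limma adjusted p = 0.0471). In both the rise was larger in total than in polyribosomal RNA, and the cause was not tested.

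Single cultures far from the others of their group were looked for in 40 groups of 4 (each gene in each group), and 2 were found, where chance gives about 1 in 20 groups. Polyribosomal Nkx2-2 was at 3400.6 normalized reads in mutant culture 4, below 5983 to 6423 in the other mutant cultures. Polyribosomal Enpp6 was at 25.9 in wild-type culture 4, above 10.6 to 12.3 in the other wild-type cultures.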

How the results depend on the processing

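No member that passed changed sign under any alternative run. In total RNA the count of members that passed (7) ranged from 5 to 8 when each culture was left out. In polyribosomal RNA (4) it ranged from 2 to 7, was 7 without mutant cultures 2 and 4 and 0 with the Y-linked covariate. In translational efficiency (2) it ranged from 0 to 2 when each culture was left out, and was 0 without a filter on low values, with scaling to the column total, without trend and robust moderation, without mutant cultures 2 and 4 and with the Y-linked covariate. Of the 10 members, 1 to 4 had an unadjusted p under 0.05 in limma under these settings.

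Over all genes 6035 passed in total RNA (4190 to 6648 when each culture was left out) and 1063 with the Y-linked covariate. In polyribosomal RNA 3403 passed (1888 to 4086), with 5395 without mutant cultures 2 and 4 and 43 with the Y-linked covariate. In translational efficiency 1858 passed (647 to 3282). There 0 passed without trend and robust moderation and 0 with the Y-linked covariate, with 3980 and 2214 at an unadjusted p under 0.05. Scaling to the column total moved the median of all genes from 0.01 to 0.11 in total and 0.13 in polyribosomal RNA.

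With no replicate block on culture, 0 members and 0 of all genes passed in translational efficiency (1 and 2221 at an unadjusted p under 0.05), and with culture as a random effect 0 members passed. Between genotypes the shared culture number did not pair the libraries (correlations of deviations from -0.13 to 0.101). A replicate block on it left 7 members in total and 4 in polyribosomal RNA, where Olig1 was lost and Sox10 gained.

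Low reads limit Enpp6 and Gpr17, and depth cannot show small changes in them.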
